A study of Zea mays with 12 samples.

Results

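In maize leaves, 71 genes rose by at least 2 in mean log2 level after 1 h of blue light, in the mutant zmcryq and in the wild type B73. The rises differed by less than 1 between the genotypes. With a pseudocount of 1 these limits stand for 4-fold and 2-fold. Ratios of plain mean levels went down to 1.7-fold in zmcryq and 2.07-fold in B73. Both were of the same gene, which had dark libraries listed at 0 in each genotype. Such libraries draw down a mean of log2 levels more strongly than a mean level. The genes were 71 of the 44303 gene IDs in the deposited table and of the 21472 that passed a filter on low values. They were selected on the measured rise in each genotype and on its likeness between genotypes, so those values are a description and carry no test. Their level in zmcryq relative to B73, averaged over dark and blue light, was not used to choose them. By that measure 36 of the 71 were lower in zmcryq (50.7%; all tested genes 31.7%) and 15 were higher (21.1%; all tested genes 31.7%), while 20 did not pass the test.

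Blue light reaches plant cells through several kinds of receptor. Cryptochromes are flavin-containing photoreceptors that, in Arabidopsis, restrain the COP1/SPA ubiquitin ligase under blue light and so let light-promoting transcription factors such as HY5 accumulate. Phototropins and other LOV-domain proteins also absorb blue light, phytochromes do so weakly, and light drives photosynthesis and chloroplast signals to the nucleus as well. Genes that respond in a cryptochrome mutant as in the wild type are of interest because of these other routes.

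RNA came from leaves of 7-day-old seedlings raised in long days of white light. All of them were then kept in darkness for 48 h, and the blue groups received 1 h of blue light afterwards, per the labels. The 4 groups were zmcryq in blue light, zmcryq in the dark, B73 in blue light and B73 in the dark, with 3 libraries each. B73 is the inbred line labelled as wild type. The labels give no allele for zmcryq, whose name refers to cryptochromes, and do not say whether it was backcrossed to B73, so cryptochrome loss and other differences between the stocks cannot be told apart. Nothing in the labels ties the replicates to different plants, and the p-values therefore reflect library-to-library spread that may be technical.

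Values are FPKM, a fragment count corrected for the length of the transcript and for the sequencing depth. The files do not pair the gene IDs with names, and the RefSeq gene table matched 0 of the 44303 IDs. Genes are therefore named by ID only, a few per comparison. For the same reason the loss of cryptochromes in zmcryq, the identity of the tissue and the functions of the 71 genes were not checked here, and no sequence is shown. Whether their rise is independent of cryptochromes was thus not tested.

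Totals ran from 588717 to 814802 FPKM per library. Each library was divided by its median ratio to the geometric mean of every gene, a factor that ran from 0.507 to 1.64, and values so divided are called scaled FPKM. The lowest factors were those of zmcryq dark replicate 1 and B73 blue replicate 2. The absolute depth is unknown. The commonest ratio of low values between libraries places the mapped total of both at 1.87 times that of B73 blue replicate 3, if the smallest steps are single fragments. Changes are given on the log2(scaled FPKM + 1) scale, so those of low genes come out too small.

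The blue response of the 71 genes, blue minus dark, ran from 2 to 4.7 in zmcryq with a median of 2.57. In B73 it ran from 2.03 to 5.28 with a median of 2.7. It was larger in zmcryq for 32 genes and larger in B73 for 39, and for 35 genes the responses were within 0.5 of each other. The pseudocount shrinks a response most where the dark level is low. That level was lower in zmcryq for 50 of the 71 genes and higher for 21, so the split between 32 and 39 depends on the pseudocount. In both genotypes 12 genes rose by at least 3 and 3 genes by at least 4. The 71 genes were 26.2% of the 271 genes that rose by at least 2 in zmcryq and 11.3% of the 630 that did so in B73.

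**Figure D1:**
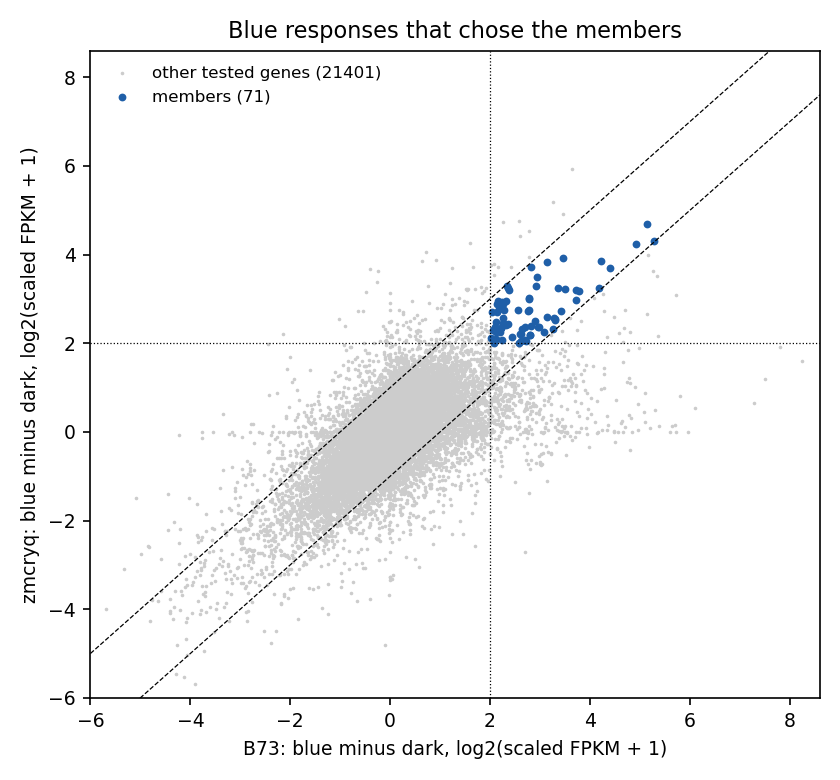
Blue response of every tested gene, blue minus dark, in B73 (horizontal) and zmcryq (vertical), both in log2(scaled FPKM + 1); dotted lines mark the minimum of 2 and dashed lines a difference of 1 between genotypes. The 71 members (blue points) lie by construction inside these lines, from 2.03 to 5.28 in B73.

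The limits of this group are not gaps in the data. The nearest gene outside had a response of 1.984 in zmcryq and the nearest inside 2.003. In B73 the nearest values were 1.995 outside and 2.025 inside, and for the difference between genotypes 1.019 outside and 0.964 inside. Leaving out each of the 12 libraries in turn gave between 64 and 77 genes, and 44 of the 71 stayed members in all 12 repeats. The 44 held 25 of the genes lower in zmcryq and 9 of those higher.

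Together the 71 genes took 0.787%, 0.586% and 1.01% of the FPKM total in the zmcryq blue libraries, against 0.0394%, 0.0811% and 0.0607% in the zmcryq dark libraries. In B73 they took 1.33%, 0.789% and 1.6% in blue light, against 0.136%, 0.132% and 0.135% in the dark. The lowest B73 blue share, that of replicate 2, lay within the range of the zmcryq blue libraries. By the median scaled FPKM of the 71 genes the blue libraries did not overlap. It was 22.1, 22.8 and 24.9 in zmcryq blue and 39.7, 39.3 and 32.3 in B73 blue. Summed over the genes, mean scaled FPKM was 4660 in zmcryq blue, 521 in zmcryq dark, 8050 in B73 blue and 939 in B73 dark. The 5 highest genes of each group held 45.6%, 40.2%, 48.4% and 44.8% of these sums in the same order.

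**Figure D2:**
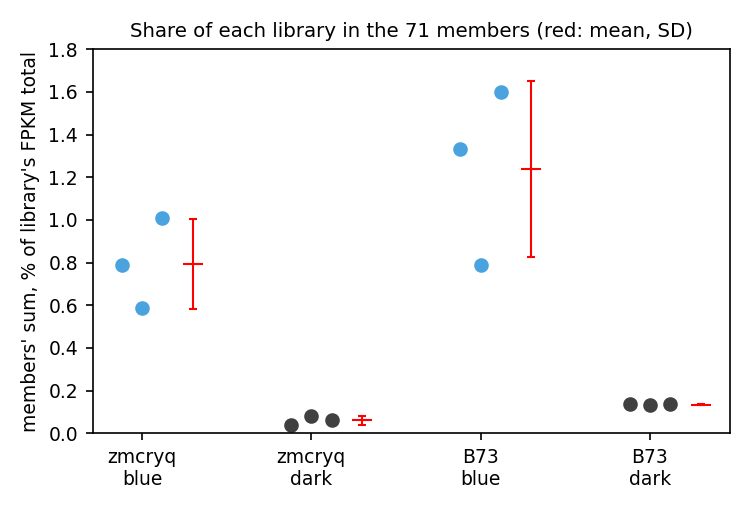
Share of each library's FPKM total taken by the 71 genes, in percent, for the 4 groups; points are libraries, and red marks are the mean and SD of 3. The blue libraries sit between 0.586% and 1.6%, above the dark libraries of both genotypes at 0.0394% to 0.136%.

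Most of the 71 genes were already present in darkness at a low level. Their median of mean scaled FPKM was 23.9 in zmcryq blue and 3.19 in zmcryq dark, and 38 in B73 blue and 4.67 in B73 dark. In the dark, 19 genes were under 1 scaled FPKM in zmcryq and 15 in B73, and 16 and 24 were over 10. In blue light none of the 71 was under 3.5 scaled FPKM in either genotype, so every member would have passed the filter on low values from the blue libraries of either genotype alone. Over 100 scaled FPKM stood 12 genes in zmcryq blue and 15 in B73 blue, against 0 in zmcryq dark and 2 in B73 dark.

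For the 48 genes at 1 scaled FPKM or more in the dark in both genotypes, a ratio without pseudocount can be given. Its median was 6.85-fold in zmcryq, with a range from 1.7 to 21.3, and 7.12-fold in B73, with a range from 2.07 to 38.9.

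Zm00001eb176470 had the largest mean response. It was listed at 52.14, 36.14 and 93.63 FPKM in zmcryq blue, against 0.5, 0.38 and 0.9 FPKM in zmcryq dark. In B73 it stood at 270.69, 165.14 and 415.9 FPKM in blue light, against 4.93, 6.11 and 8.84 FPKM in the dark. The blue libraries lay far above the dark ones in both genotypes, and each zmcryq group lay wholly below the B73 group in the same light. Its response was 4.7 in zmcryq and 5.13 in B73. Mean scaled FPKM rose from 0.858 to 46.6 in zmcryq and from 6.33 to 253 in B73. With a pseudocount of 0.1, zmcryq minus B73 was -2.82 in the dark and -2.43 in blue light. The order of the responses was then reversed. Its genotype difference, zmcryq minus B73 averaged over both lights, was -2.18 ± 0.19 (SE; limma adjusted p 1.6e-06), with the difference in the same direction in both lights.

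Zm00001eb012470 was the most abundant of the 71 in B73 blue. It had 358.01, 264.14 and 608.27 FPKM in zmcryq blue, against 8.12, 14.99 and 10.93 FPKM in zmcryq dark. In B73 it had 1486.67, 684.24 and 2407 FPKM in blue light, against 30.67, 25.47 and 47.77 FPKM in the dark. Again the zmcryq libraries were below the B73 libraries in the same light without overlap. Its response was 4.32 in zmcryq and 5.28 in B73, near the largest difference the rule admits. It left the group in 5 of the 12 repeats that omit a library (B73 dark replicate 3, B73 blue replicates 1 and 2, zmcryq dark replicate 2 and zmcryq blue replicate 3). The genotype difference over both lights was -1.51 ± 0.17 (limma adjusted p 1.1e-05).

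In 67 of the 71 genes the 3 blue libraries lay above the 3 dark libraries in both genotypes, as the selection favours (all tested genes 19.8%). It held in 68 in zmcryq (all tested genes 35.1%) and in 68 in B73 (28.6%). Of the other 4, 3 overlapped in zmcryq and 3 in B73. Residual SDs over 1 on the log2 scale, against a median of 0.243 for the 71 genes and 0.18 for all tested genes, occurred in 4 members, each of which had a library listed at 0. At least 1 dark library listed at 0 occurred in 9 of the 71 genes, and no blue library was. The responses depend on the pseudocount, also in genes with no library at 0, such as Zm00001eb100620, whose response in B73 was 2.8 with a pseudocount of 0.1 and 1.1 with 5. With a pseudocount of 0.1 or 5 in place of 1 the rule gave 205 or 16 genes, of which 57 and 14 were among the 71.

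**Figure D3:**
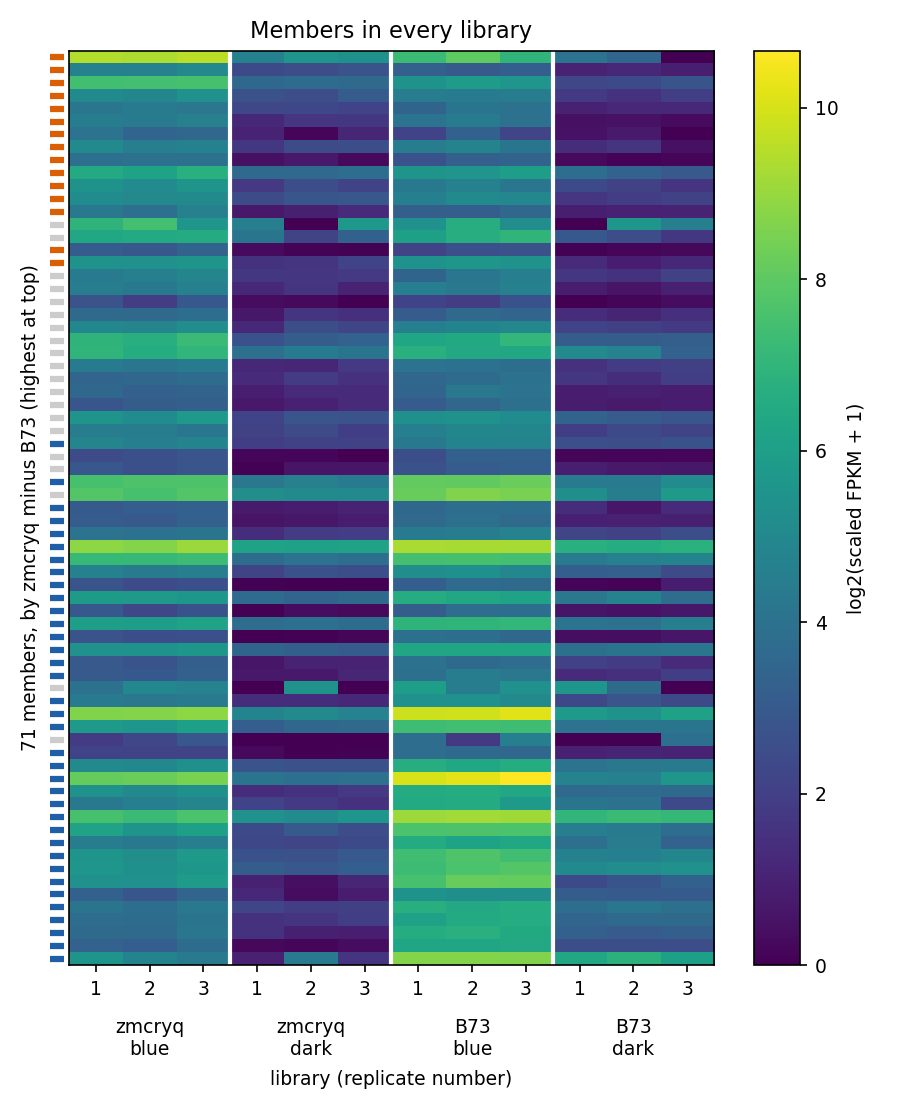
Log2(scaled FPKM + 1) of the 71 genes (rows) in the 12 libraries (columns), ordered by zmcryq minus B73 over both lights, highest at the top; bars at the left mark genes called higher (orange, 15), lower (blue, 36) or not called (grey, 20). Blue libraries are brighter than dark ones in nearly every row, and toward the bottom both zmcryq groups are darker than the B73 groups.

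The rule does not fix whether a like response starts and ends at a like level. All 21472 tested genes were fitted with limma, and the genotype difference was averaged over dark and blue. Where dark and blue errors have equal spread, its error, though not its true size, is uncorrelated with those of both blue responses. Spread was not equal in every member. In B73, Zm00001eb415540 had log2 levels of 4.07, 3.46 and 0 in the dark, against 7.26, 8.03 and 6.99 in blue light. In such genes the genotype difference is not free of the selection. Of the 71 genes, 36 were lower in zmcryq at an adjusted p under 0.05, where 31.7% of all tested genes were lower. Higher in zmcryq were 15 of the 71, where again 31.7% of all tested genes were higher. The median difference was -0.42 over the 71 and 0.02 over all tested genes. The difference was negative in 47 of the 71 (66.2%) and in 48.5% of all tested genes. No test was made of the group against the other genes.

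With at least a 2-fold difference as well, 20 of the 71 were lower (28.2%; all tested genes 10.2%) and 3 were higher (4.23%; all tested genes 7.38%). All 20 also had every zmcryq library below every B73 library in the same light, in both lights. That pattern held for 32 of the 71 in all (45.1%; all tested genes 19.3%), and the reverse, zmcryq above B73 in both lights, for 6 (8.45%; all tested genes 19.5%). Without scaling between libraries, 24 of the 71 were called lower (4003 of all tested genes) and 4 higher (2307 of all tested genes). The median difference was then -0.51, against -0.11 over all tested genes. In leaf RNA, fewer cells that express a gene and less RNA per cell cannot be told apart.

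Among the genes lower in zmcryq, Zm00001eb367650 had the largest difference. It had 57, 23.16 and 32.23 FPKM in zmcryq blue, against 584.81, 235.21 and 589.83 FPKM in B73 blue. In the dark it had 0.48, 21.3 and 1.58 FPKM in zmcryq, against 94.28, 118.16 and 62.77 FPKM in B73. After scaling, its zmcryq blue libraries all lay below its B73 dark libraries. The difference was -3.92 ± 0.52 (SE; limma adjusted p 9.9e-05). In zmcryq its dark replicate 2 was close to the blue libraries, and the response of 2.56 in zmcryq became 3.58 without that library and 1.88 without zmcryq dark replicate 1. It was not a member in either case. The genotype difference in the dark, -4.07, became -5.09 without zmcryq dark replicate 2.

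Zm00001eb023230 had 11.79, 7.04 and 20.78 FPKM in zmcryq blue, against 114.07, 43.45 and 126.61 FPKM in B73 blue. In the dark it had 0.09, 0.15 and 0.21 FPKM in zmcryq, against 5.76, 5.15 and 4.71 FPKM in B73. Replicates were close after scaling and no groups overlapped. Mean scaled FPKM was 10 ± 2.35 in zmcryq blue and 80.2 ± 4.47 in B73 blue, and 0.202 ± 0.0773 in zmcryq dark and 4.88 ± 0.125 in B73 dark (SD, n = 3 each). The difference over both lights was -2.6 ± 0.09 (SE; limma adjusted p 6.1e-10). It stayed a member in all 12 repeats that omit a library. With a pseudocount of 0.1, zmcryq minus B73 was -4.08 in the dark and -3.01 in blue light. The responses of the genotypes then differed by more than the rule admits, so membership rests on the pseudocount.

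Among the genes higher in zmcryq, Zm00001eb415540 led. It had 865.78, 571.67 and 1235.51 FPKM in zmcryq blue, against 220.15, 148.04 and 186.79 FPKM in B73 blue, and was the most abundant of the 71 in zmcryq blue. In the dark it had 12.59, 50.01 and 29.19 FPKM in zmcryq, and was listed at 18.2, 10.5 and 0 FPKM in B73. After scaling the zmcryq libraries were above the B73 libraries in both lights. The difference over both lights was 2.36 ± 0.62 (SE; limma adjusted p 0.0074). Its size rests in part on the B73 dark library listed at 0, and without that library, replicate 3, it was 1.73. In blue light alone, where no library is at 0, the difference was 2.02 ± 0.87 and missed the threshold (limma adjusted p 0.075), since the model takes 1 spread per gene from all groups. Without the library at 0 that difference passed, and over the repeats with other settings or libraries omitted its adjusted p ran from 3e-04 to 0.3. Zm00001eb415540 left the group without B73 dark replicate 1 or 2.

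The gene in the preceding row of the table was also a member and also higher in zmcryq, by 1.52 ± 0.1 (SE; limma adjusted p 1.2e-07), with mean responses of 3.49 for it and 4.58 for Zm00001eb415540. Such neighbours in the table occurred 3 times among the 71 genes. In the other pairs the differences were 0.12 and 0.16, and -0.78 and 0.15. The sources do not tell how fragments shared by near-identical or overlapping genes were counted, and the values of neighbours may not be separate measurements.

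Zm00001eb100620, the second gene named as higher, was low in B73 but not in zmcryq, by the levels of the 71 genes. It had 31.39, 21.64 and 51.73 FPKM in zmcryq blue, against 12.61, 3.97 and 12.21 FPKM in B73 blue. In the dark it had 2.14, 5.18 and 4.09 FPKM in zmcryq, against 1.19, 1.33 and 0.88 FPKM in B73. Unscaled, the lowest zmcryq blue value still lay above the highest B73 blue value, and the dark groups did not overlap either. The difference over both lights was 1.58 ± 0.09 (SE; limma adjusted p 5e-08).

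**Figure D4:**
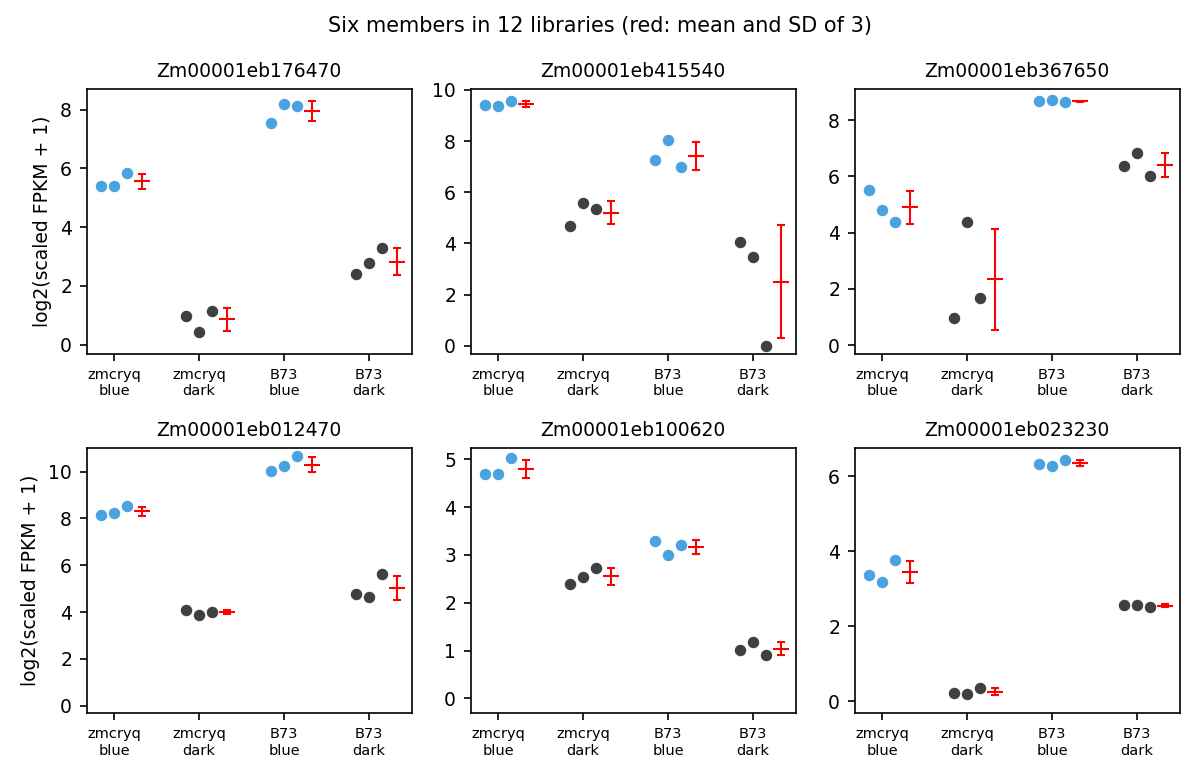
The 6 named genes in all libraries as log2(scaled FPKM + 1), in the order zmcryq blue, zmcryq dark, B73 blue and B73 dark; points are libraries, and red marks are the mean and SD of 3 (left column, largest responses; middle, higher in zmcryq; right, lower in zmcryq). Zm00001eb367650 has 1 zmcryq dark library at the level of its blue libraries, and Zm00001eb415540 has 1 B73 dark library at 0.

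The genotype difference was also read in each light. The means of each light entered the blue responses that chose the members, so the errors of these differences are not independent of the selection. The counts below are given as a description. In the dark, before any blue light, 31 of the 71 were lower in zmcryq (43.7%; all tested genes 24.7%) and 10 were higher (14.1%; all tested genes 25.1%), with a median of -0.37. In blue light 38 were lower (53.5%; all tested genes 28.1%) and 11 were higher (15.5%; all tested genes 26.9%), with a median of -0.49. Without scaling the medians of the 71 were -0.72 in the dark and -0.31 in blue light, in the reverse order. In the dark the median was -0.6 with a pseudocount of 0.1 and -0.18 with 5, so no order between the lights is read from them. With a 2-fold difference required as well, 17 were lower in the dark (all tested genes 8.69%) and 6 higher (7.47%), and 21 were lower in blue light (all tested genes 12.6%) and 3 higher (8.9%). In the dark the zmcryq libraries lay wholly below the B73 libraries for 35 genes (all tested genes 27.2%) and wholly above for 10 (28.2%). In blue light they lay wholly below for 37 genes (all tested genes 32.5%) and wholly above for 14 (32.9%). The rule bounds the gap between these differences to less than 1 for each gene, so their likeness is no result.

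**Figure D5:**
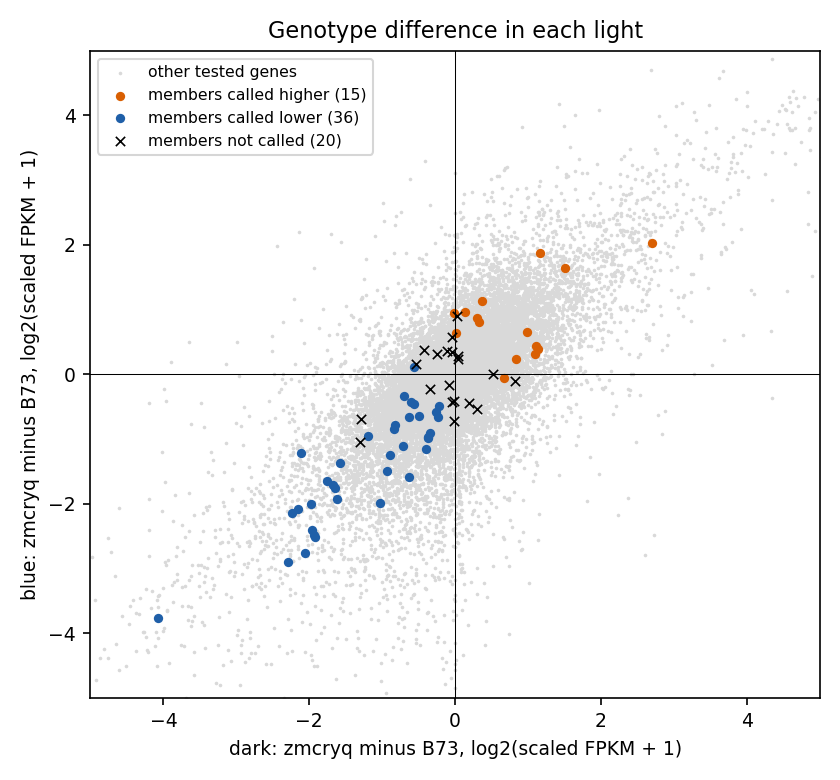
Genotype difference, zmcryq minus B73, in the dark (horizontal) and in blue light (vertical), in log2(scaled FPKM + 1), for tested genes within 5 of 0 on both axes (grey) and the 71 members, coloured by their call over both lights. Of the members, 36 called lower lie toward the lower left and 15 called higher toward the upper right.

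The genes lower in zmcryq were the more abundant ones in B73. Mean scaled FPKM of the 36 had a median of 24.5 in zmcryq blue and 84.3 in B73 blue, and of 3.15 in zmcryq dark and 11.9 in B73 dark. For the 15 higher genes the medians were 27.1 in zmcryq blue and 20.3 in B73 blue, and 3.74 in zmcryq dark and 1.21 in B73 dark. In zmcryq the lower and higher genes thus had near medians, whereas in B73 they stood apart, which the sorting by genotype difference favours. The genotype difference was weakly related to the mean level (Pearson r -0.22, Spearman rho -0.26) over 71 genes measured in the same libraries, which are not independent replicates. Levels of the 71 genes in zmcryq and in B73 correlated at Pearson r 0.8 in blue light and 0.78 in the dark.

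Genes that met the same minimum response but differed by 1 or more between genotypes were few. For 22 the response was smaller in zmcryq, with median responses of 2.54 in zmcryq and 4.53 in B73. Of these 22, 18 were lower in zmcryq over both lights (81.8%; all tested genes 31.7%) and 2 were higher (9.09%; all tested genes 31.7%). For 13 the response was larger in zmcryq, with medians of 4.42 in zmcryq and 2.58 in B73. Of these 13, 1 was lower (7.69%) and 8 were higher (61.5%), beside the same 31.7% of all tested genes. A response that differs between genotypes moves the average itself, so these counts are partly fixed by the selection. In the dark alone, 13 of the 22 were lower (59.1%; all tested genes 24.7%) and 3 higher (13.6%; all tested genes 25.1%). Of the 13 genes, 3 were lower and 3 higher (23.1% each), near the shares of all tested genes. Dark means also entered the selection, so the dark counts are not free of it. No test between these groups and the 71 was made.

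Within a group, the 71 genes deviated together in some libraries. In zmcryq blue replicate 3, 62 of the 71 were above their group mean, with a median deviation of 0.14, and in zmcryq blue replicate 2 only 10 were, with a median of -0.14. Over all tested genes the medians in these libraries were 0.006 and -0.008, with 52.2% and 46.4% of genes above their group mean. In the other libraries between 23 and 48 of the 71 were above the group mean, with medians from -0.1 to 0.07. Of all tested genes, 47.3% to 52.4% were above it in those libraries. These deviations are small beside the responses of 2 or more. They are not small beside the median genotype difference of the 71 in blue light, -0.49.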

How the data were processed

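The authors deposited 1 table with a value per gene and library, read here as FPKM because the values carry decimals, totals differ between libraries, and Cufflinks, which writes FPKM, is among the tools in the submitters' processing notes. Trimmomatic 0.36 and HISAT2 2.2.1.0 also appear in those notes, without a stated role. Build, annotation and strandedness: not given in the sources used here. The 4 deposited columns of group means equal the means of their libraries and were not used.

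The filter kept the 21472 genes that reached 1 FPKM in 3 or more libraries (factors from the 19555 above 0 in all libraries). Group means on the log2(scaled FPKM + 1) scale were estimated in limma 3.58.1 (R 4.3.3) from all 12 libraries, using robust moderation with a trend (8 residual and a median of 3.22 prior degrees of freedom), 2-sided tests and Benjamini-Hochberg adjustment over all tested genes. Scaling sets the median difference near 0, and would hide a change common to most genes. In simulated data with 200 changed genes among 21472, the fit for the genotype average recovered 92% of changes of 1 and 99% of changes of 2 on the log2 scale, with 1.55% of calls unchanged genes. For the dark difference it recovered 79% and 99%, with 6.32% of calls unchanged genes, and for the blue difference 76% and 94%, with 3.95%. Those 200 genes are few beside the real data, where 63.4% of all tested genes were called for the genotype average. The changed genes were drawn only from those with a mean log2 level over 3, and the rates were not split by level. The lower quartile of the mean log2 level of the 71 was 2.44. Recovery under these conditions was not tested, so the rates are not applied to the calls given here. The members and settings were chosen with earlier results of these data known. Genes named are the first 2 by mean response and the 2 highest and 2 lowest called by genotype average. Alternatives were no scaling, quantile normalization, other pseudocounts and filters, a replicate block, and omission of each library.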

Additional observations from a re-analysis of the deposited data

How the results depend on the processing

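Without scaling between libraries the rule gave 134 genes, 57 of them among the 71. The genotype average then called 4 of the 71 higher, and 2307 of all tested genes higher and 4003 lower. In the dark it called 2 of the 71 higher and 20 lower, with 971 and 3106 over all genes, and in blue light 7 and 17, with 2492 and 2372. Unscaled values carry the library factors as spread, and the median of all tested genes shifted to -0.38 in the dark and 0.17 in blue light, and that of the 71 to -0.72 and -0.31. The rule gave 205 genes with a pseudocount of 0.1 and 16 with 5, and with 0.1 the members higher in blue light were 7, beside 5717 of all tested genes. The cause was not tested. Omitting each library in turn gave 64 to 77 members by the rule. Of the 71, 12 to 15 were then higher and 34 to 39 lower over both lights, 8 to 11 and 27 to 31 in the dark, and 8 to 12 and 30 to 38 in blue light. Over all genes these omissions gave 6275 to 7141 higher and 6349 to 7119 lower for the average, 4624 to 5830 and 4660 to 5616 in the dark, and 4947 to 6452 and 5331 to 6572 in blue light. Without the 2 libraries of lowest factor together, a setting chosen after seeing the data, the rule gave 71 genes, 62 of them shared. Of the main 71, 16 were then higher and 33 lower over both lights, with 6143 and 6236 over all tested genes.

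The replicate numbers did not pair the libraries: only 4 of 18 correlations of same-numbered libraries were over 0.1 (range -0.3 to 0.32), and a library correlated best with its own number in 9 of 36 comparisons. With the replicate block, 15 of the 71 were higher and 35 lower over both lights, 10 and 30 in the dark, and 11 and 39 in blue light. Over all tested genes the block gave 6763 higher and 6762 lower, 5327 and 5254 in the dark, and 5706 and 5991 in blue light. The dark difference of Zm00001eb012470 missed the threshold under quantile normalization (-0.99), and that of Zm00001eb415540 missed it with a pseudocount of 0.1 (3.83) or without zmcryq dark replicate 2 (2.52) or 3 (2.64). No depth in fragments is known, so precision rests on 3 libraries per group.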
